A study of Mus musculus with 30 samples.

Results

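Described here are 9 genes known from mouse blood stem cells, in 30 RNA-seq libraries of multipotent progenitors: Hlf, Mecom, Mllt3, Mycn, Procr, Esam, Emcn, Pdzk1ip1 and Fgd5. They were chosen by their symbols, as regulators and surface markers of stem cells, with earlier results of these data known. All 9 symbols were found in all 5 tables, among 24421 genes listed in the deposited tables. Counts of these genes, and of the other gene lists, beside the share of all genes are thus a description and not a test of the set. The study's title and design name Bcl11a, a zinc-finger repressor, and ask what it does in progenitors of young and old mice and what its overexpression does. Cells were sorted by flow cytometry from bone marrow as MPP3, a multipotent progenitor subset known for myeloid output, or MPP4, a subset known for lymphoid output. The 5 tables, with 3 T2 and 3 T1 libraries in each, were KOiMOS MPP3 of mice aged 3 months and, for WTiMOS, both MPP3 and MPP4 from each of the ages 3 and 24 months. The design also lists 24-month KOiMOS MPP3, not analysed here. The labels give KOiMOS or WTiMOS joined with T2 or T1 as the genotype and do not spell out these names, the alleles or the Cre behind them. They also do not say whether T2 and T1 cells came from the same animals or how many animals stand behind the replicates. The p-values therefore reflect library-to-library spread alone, possibly technical in origin.

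Blood stem cells renew themselves and feed the multipotent progenitors, which have lost most of that capacity and lean toward particular lineages. A set of transcription and chromatin regulators, among them HLF, the MECOM product EVI1, MLLT3 and N-Myc, is known to sustain the stem cell program, and its RNA normally falls as cells become progenitors. Procr, Esam and Emcn encode surface proteins used to sort stem cells, also known from endothelial cells, while Pdzk1ip1 and Fgd5 are known from reporter lines that mark stem cells.

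RefSeq promoter entries on build GRCm38.p6 matched 8 of the 9 genes, in 10 entries; Esam had no entry. The 250 bases before the start site were searched on both strands for 7 short motifs: TGACCA, the letters bound by Bcl11a; TTACGTA, known for PAR bZIP factors such as HLF; the GATA factor letters AGATAA as well as the variant TGATAA; for ETS factors, the letters CCGGAA as well as the variant AGGAAG; and CACGTG, the E-box of the Myc family. No match overlapped another in the entries shown. Of all 32851 RefSeq promoters of that length, 11.4% held TGACCA, 0.432% TTACGTA, 9.99% AGATAA, 7.94% TGATAA, 12% CCGGAA, 29.5% AGGAAG and 6.02% CACGTG. Among the 10 entries, TGACCA stood in 2 (Pdzk1ip1 and the downstream Mllt3 start), AGGAAG in 2 (Emcn and Fgd5), and TGATAA (the upstream Mecom start), CCGGAA (Hlf) and CACGTG (Pdzk1ip1) in 1 each. TTACGTA and AGATAA stood in 0 of the 10, and the Procr and Mycn entries held none of the motifs searched. The promoters of Hlf, Emcn and Pdzk1ip1 are printed because Hlf ran in opposite directions in KOiMOS and WTiMOS MPP3, Emcn was higher in T2 cells of every WTiMOS table and Pdzk1ip1 holds the Bcl11a letters; capitals mark the motifs, and a match of letters is a description, not a site of binding.
Hlf promoter, chr11:90390918-90391167, minus strand: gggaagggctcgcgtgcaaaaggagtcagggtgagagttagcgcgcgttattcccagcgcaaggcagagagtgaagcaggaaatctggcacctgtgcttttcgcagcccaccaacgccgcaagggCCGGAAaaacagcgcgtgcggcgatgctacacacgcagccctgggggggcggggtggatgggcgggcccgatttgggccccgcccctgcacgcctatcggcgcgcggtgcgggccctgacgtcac
Emcn promoter, chr3:137340828-137341077, plus strand: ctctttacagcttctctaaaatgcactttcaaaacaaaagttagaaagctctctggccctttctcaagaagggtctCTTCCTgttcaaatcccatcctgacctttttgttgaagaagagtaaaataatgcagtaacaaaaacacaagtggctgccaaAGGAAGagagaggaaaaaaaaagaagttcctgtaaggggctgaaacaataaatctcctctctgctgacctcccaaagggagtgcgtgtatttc
Pdzk1ip1 promoter, chr4:115088458-115088707, plus strand: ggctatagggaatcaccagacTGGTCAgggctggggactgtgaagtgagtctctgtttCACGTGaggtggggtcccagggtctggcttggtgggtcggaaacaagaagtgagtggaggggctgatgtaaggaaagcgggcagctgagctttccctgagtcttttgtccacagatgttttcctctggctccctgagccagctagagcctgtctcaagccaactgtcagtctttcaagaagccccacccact
In the Hlf promoter the capitals are CCGGAA, beginning 125 bases upstream of the start. The Emcn promoter holds AGGAAG on both strands, 174 bases upstream (read here as its complement) and 93 bases upstream. The Pdzk1ip1 promoter holds TGACCA on the opposite strand, 229 bases upstream, and CACGTG 192 bases upstream.

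Some facts of the whole tables bear on every value. TPM (each transcript's share of its library, corrected for transcript length) has the same sum in every library, so read depth is unknown, 10519 to 12008 genes reached 1 TPM in a library, and log2(TPM + 1) of libraries of 1 group correlated at 0.988 to 0.998 across genes. Bcl11a averaged 39.1 ± 5.63 TPM in T2 cells and 11.2 ± 2.32 TPM in T1 cells at 24 months in MPP3 and 66.7 ± 4.23 TPM in T2 cells and 25.1 ± 2.09 TPM in T1 cells in MPP4 (SD, n = 3 each). At 3 months it averaged 68.2 ± 3.41 TPM in T2 cells and 70.3 ± 2.48 TPM in T1 cells of KOiMOS MPP3, 78.5 ± 6.06 TPM in T2 cells and 45.2 ± 2.79 TPM in T1 cells of WTiMOS MPP3 and 65.0 ± 1.20 TPM in T2 cells and 39.4 ± 3.83 TPM in T1 cells of MPP4. It was higher in T2 cells of the 4 WTiMOS tables (limma, Benjamini-Hochberg adjusted p = 0.000926 at most) and not called in KOiMOS MPP3 (adjusted p = 0.579). T2 and T1 libraries also differed in Y-linked RNA, summed over 4 genes: 54.0 to 76.8 TPM in T2 and 0 in all T1 libraries of 24-month MPP3, 106 to 115 in T2 and 0 in all T1 libraries of 3-month MPP4, and 158 to 169 in T2 and 0.0607 to 0.184 in T1 libraries of 24-month MPP4. In these 3 tables the sex of the source animals and the T2 and T1 labels cannot be told apart. In the 3-month MPP3 tables both cell groups held Y-linked RNA, with no overlap. It was 55.3 to 61.2 TPM in T2 and 110 to 114 TPM in T1 libraries of KOiMOS. In WTiMOS it was 33.8 to 58.5 TPM in T2 and 64.2 to 78.9 TPM in T1 libraries. Xist, known from female cells, ran the other way: 28.3 to 29.2 TPM in T2 and up to 22.8 TPM in T1 libraries of KOiMOS. In WTiMOS it was 33.4 to 40.5 TPM in T2 and up to 32.7 TPM in T1 libraries. T2 libraries of the other 3 tables also held Xist, up to 34.1 TPM, against 60.8 to 105 TPM in T1. The part of sex in the T2 and T1 differences was not tested in any table.

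At 24 months T2 libraries held more RNA of all 9 genes in both progenitor types. Every T2 library lay above every T1 library for 9 of 9 genes in MPP3 and for 9 of 9 in MPP4. Fgd5 was under the filter in both, near the floor in T1 cells (mean 0.126 and 0.0176 TPM). The other 8 compare with 37.3% and 61.2% of all genes tested that did so. Of the 8 genes that passed the filter (at least 1 TPM in at least 3 of the 6 libraries; Fgd5 did not), 8 were called higher in MPP3, against 42% of all genes called, 30% higher and 12% lower. In 24-month MPP4 8 of 8 were called higher, against 65.2% of all genes called, 58.2% higher and 7% lower. The median change of the 8 was 1.92 on the log2(TPM + 1) scale in MPP3 and 1.43 in MPP4, while the median of all genes was 0.18 and 0.43. In 3-month WTiMOS MPP3 5 of 9 were called higher and 0 lower, against 14.3% of all genes called, 8.39% higher and 5.96% lower. T2 libraries lay wholly above T1 libraries there for 6 of 9 genes, against 21.4% of all genes. Fgd5, not called, was among these and passed the filter only through its T2 libraries, so it does not bear on that comparison.

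In KOiMOS MPP3 the genes were split: 2 of 9 were called higher (Mllt3 and Esam) and 3 lower (Hlf, Mycn and Procr), against 36.4% of all genes called, 15.9% higher and 20.4% lower. There T2 libraries lay wholly above for 3 genes and wholly below for 3, against 21% and 28.4% of all genes. In 3-month MPP4, TPM as deposited gave 1 of 8 genes called higher (Emcn) and 5 lower, against 81.3% of all genes called, 8.71% higher and 72.6% lower. T2 libraries lay wholly above for 1 of 9 genes and wholly below for 4 (Fgd5, under the filter, overlapped), against 8.98% and 72.8% of all genes tested. The direction in 3-month MPP4 depended on the scale. The median gene there had a log2 change of -0.74, and the cause of this shift was not tested. The 50 most abundant genes took 24.7% to 24.9% of TPM in T2 and 18.9% to 19.0% in T1 libraries. Beta-2 microglobulin (B2m) alone averaged 31483 TPM in T2 and 15485 TPM in T1 cells.

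After each library was divided by its median ratio to the table's geometric mean, 5 of the 8 genes were called higher in 3-month MPP4 (25.8% of all genes were) and 1 lower, Esam (26.7% were). The same rescaling left 7 of 8 genes called higher in 24-month MPP3 (18.7% of all genes), 6 of 8 in 24-month MPP4 (14.7%) and 4 of 9 in 3-month WTiMOS MPP3 (4.7%), with 0 lower in these 3. In KOiMOS MPP3 it gave 3 higher (19.8%) and 3 lower (17.7%). Over all 45 pairs of a gene and a table, 42 were tested as deposited, 24 called higher, 8 lower and 10 not called. Whether T2 samples held fewer or more cells of a kind, or more RNA of a gene per cell, cannot be told apart in such bulk libraries.

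**Figure D1:**
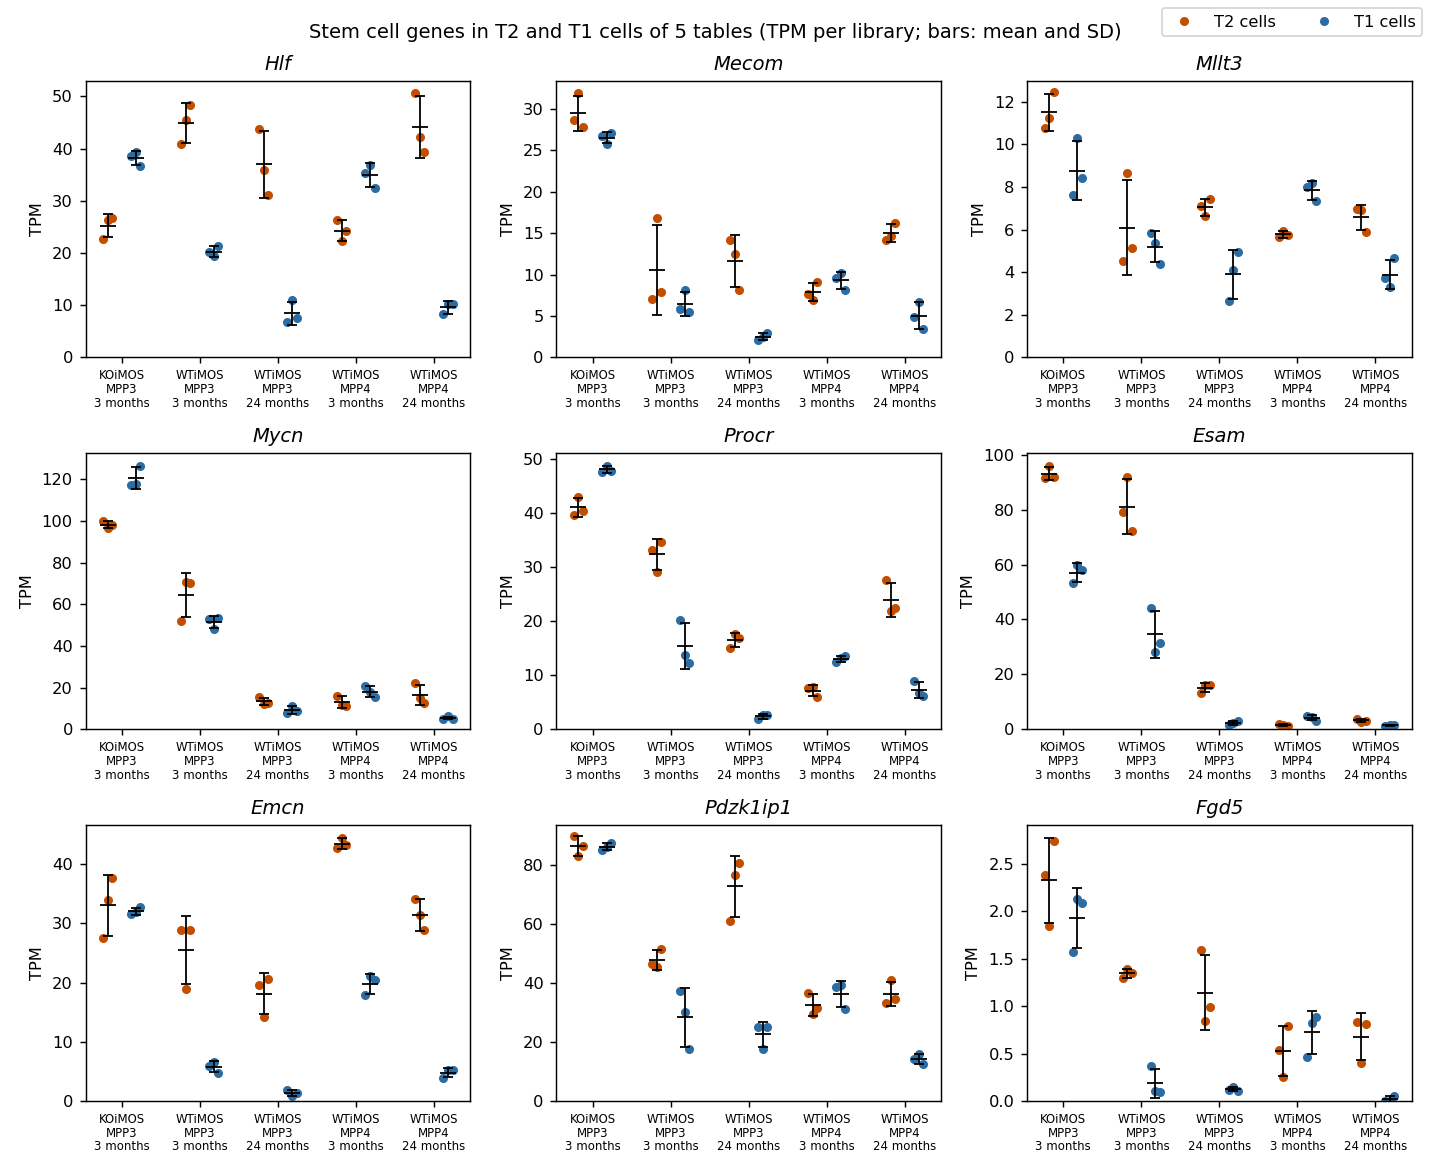
TPM of each gene (vertical axis, linear from 0) in every library, in 5 tables (horizontal axis), with T2 cells in orange left of T1 cells in blue; dots are libraries, and bars are the mean and SD of 3. At 24 months T2 dots stand above T1 dots for all 9 genes in both MPP3 and MPP4.

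Hlf encodes a PAR bZIP transcription factor known to keep stem cells out of cycle, and lies on chr11:90336536-90390895 (minus strand; positions from GENCODE vM21 on GRCm38). In 24-month MPP3 it had 43.8, 35.9 and 31.1 TPM in T2 cells, against 6.80, 10.95 and 7.60 TPM in T1 cells. In 24-month MPP4 it had 50.7, 42.2 and 39.3 TPM in T2 cells, against 8.23, 10.2 and 10.3 TPM in T1 cells. The highest T1 library of either old table stayed below the lowest T2 library by a wide gap, and the log2 change was 2.02 ± 0.18 (SE) in MPP3 (limma, adjusted p = 8.17e-06) and 2.09 ± 0.13 in MPP4 (adjusted p = 1.92e-06). In 3-month WTiMOS MPP3 Hlf had 40.9, 45.4 and 48.4 TPM in T2 cells, against 20.2, 19.3 and 21.3 TPM in T1 cells, a log2 change of 1.11 ± 0.15 (limma, adjusted p = 0.000307). KOiMOS MPP3 showed the opposite order with no overlap: 22.6, 26.3 and 26.8 TPM in T2 cells, against 38.6, 39.3 and 36.6 TPM in T1 cells, a log2 change of -0.58 ± 0.075 (limma, adjusted p = 7.46e-05). In 3-month MPP4 it had 26.4, 22.3 and 24.2 TPM in T2 cells, against 35.3, 36.9 and 32.5 TPM in T1 cells. That was a log2 change of -0.51 ± 0.11 as deposited (limma, adjusted p = 0.000980) and of 0.29 after rescaling (adjusted p = 0.0252), so its direction there turned with the scale, while in the other 4 tables it did not. Among the 10 groups the mean level ran between 44.9 TPM (T2 of 3-month WTiMOS MPP3) and 8.45 TPM (T1 of 24-month MPP3), with overlapping libraries in 5 of the 9 neighbouring pairs in that order.

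Mecom encodes EVI1, a zinc-finger regulator required for long-term stem cells, on chr3:29951296-30548008 (minus strand). It had 14.2, 12.5 and 8.16 TPM in T2 cells, against 2.13, 2.49 and 2.91 TPM in T1 cells of 24-month MPP3. The 24-month MPP4 levels were 14.2, 14.6 and 16.3 TPM in T2 cells, against 4.92, 6.69 and 3.50 TPM in T1 cells. T2 and T1 libraries were apart in both, with log2 changes of 1.82 ± 0.20 (limma, adjusted p = 4.42e-05) and 1.44 ± 0.18 (adjusted p = 0.000154). At 3 months no change of Mecom was called as deposited. In WTiMOS MPP3 it had 7.03, 16.8 and 7.89 TPM in T2 cells, against 5.85, 8.14 and 5.46 TPM in T1 cells, overlapping groups in which the T2 replicate 2 library stood high. Its log2 change was 0.55 ± 0.30 there (limma, adjusted p = 0.253) and 0.19 without that library. In KOiMOS MPP3 it had 28.7, 31.9 and 27.8 TPM in T2 cells, against 26.8, 25.7 and 27.1 TPM in T1 cells, and in 3-month MPP4 7.62, 6.97 and 9.11 TPM in T2 cells, against 9.53, 10.2 and 8.17 TPM in T1 cells. Those log2 changes were 0.14 ± 0.07 in KOiMOS MPP3 (limma, adjusted p = 0.130) and -0.21 ± 0.15 in 3-month MPP4 (adjusted p = 0.206). Rescaled, both passed as higher, at 0.18 (adjusted p = 0.0344) and 0.53 (adjusted p = 0.00814). KOiMOS MPP3 held the most Mecom RNA of the 5 tables, with all 6 libraries above 25 TPM and every library of the other 4 tables below 17 TPM.

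Mllt3 encodes AF9, a reader of acylated histones that supports stem cell maintenance in human cord blood, on chr4:87769925-88033364 (minus strand). Its steps were small, with a log2 change of 0.75 at most as deposited. The 24-month MPP3 levels were 7.09, 6.64 and 7.43 TPM in T2 cells, against 2.64, 4.09 and 4.95 TPM in T1 cells. Its 24-month MPP4 libraries held 6.95, 6.89 and 5.90 TPM in T2 cells, against 3.72, 3.28 and 4.65 TPM in T1 cells. The groups were apart and both steps passed, at log2 0.75 ± 0.20 (limma, adjusted p = 0.00977) and 0.64 ± 0.16 (adjusted p = 0.00515), but the MPP4 step was 0.27 after rescaling (adjusted p = 0.208). In KOiMOS MPP3 it had 10.8, 11.2 and 12.5 TPM in T2 cells, against 7.60, 10.3 and 8.43 TPM in T1 cells, which overlapped for no library, and was called higher at log2 0.36 ± 0.11 (limma, adjusted p = 0.0233), a call lost without T1 replicate 1, T1 replicate 3 or T2 replicate 3 (adjusted p = 0.0658 to 0.0975) or with no filter (adjusted p = 0.0605). The 3-month MPP4 levels were 5.63, 5.94 and 5.76 TPM in T2 cells, against 7.99, 8.18 and 7.34 TPM in T1 cells, with T2 below T1 in every library. It was called lower as deposited at log2 -0.38 ± 0.14 (limma, adjusted p = 0.0238), a call lost without T1 replicate 1, T1 replicate 2 or T2 replicate 3 (adjusted p = 0.0539 to 0.0880), and higher at 0.34 after rescaling (adjusted p = 0.0445). In 3-month WTiMOS MPP3 it had 4.51, 8.63 and 5.15 TPM in T2 cells, against 5.83, 5.35 and 4.40 TPM in T1 cells, which overlapped (log2 0.16 ± 0.27; limma, adjusted p = 0.750).

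Mycn encodes N-Myc, a Myc-family factor active in stem cells and known to bind CACGTG, on chr12:12936093-12941914 (minus strand). Its level differed widely between tables. All 12 libraries of 3-month MPP3, KOiMOS and WTiMOS together, held 48.1 TPM or more, while the 18 libraries of the other tables held 22.0 TPM or less, and the table and the condition cannot be told apart in such levels. In 24-month MPP4 it had 22.0, 14.9 and 12.7 TPM in T2 cells, against 5.11, 6.22 and 4.94 TPM in T1 cells, and in 24-month MPP3 15.5, 12.3 and 12.4 TPM in T2 cells, against 7.57, 11.3 and 8.80 TPM in T1 cells. T2 and T1 libraries did not overlap in either, with log2 changes of 1.42 ± 0.19 in MPP4 (limma, adjusted p = 0.000189) and 0.50 ± 0.17 in MPP3 (adjusted p = 0.0309). The MPP3 call was lost after rescaling (0.33, adjusted p = 0.127) and without T1 replicate 1, T1 replicate 3, T2 replicate 1 or T2 replicate 2 (adjusted p = 0.0507 to 0.124), with no filter (adjusted p = 0.0624), with the replicate block (adjusted p = 0.0545) and with GC and length trends removed (0.20, adjusted p = 0.362). In KOiMOS MPP3 Mycn had 99.8, 96.4 and 98.2 TPM in T2 cells, against 117, 118 and 127 TPM in T1 cells, groups apart with T2 lower (log2 -0.29 ± 0.048; limma, adjusted p = 0.000509). The 3-month WTiMOS MPP3 levels were 52.1, 70.7 and 70.1 TPM in T2 cells, against 52.9, 48.1 and 53.4 TPM in T1 cells. These overlapped through the T2 replicate 1 library: the log2 change was 0.30 ± 0.14 (limma, adjusted p = 0.178) and 0.45 without it (adjusted p = 0.0258). Its 3-month MPP4 libraries held 16.2, 11.8 and 11.04 TPM in T2 cells, against 20.7, 17.9 and 15.6 TPM in T1 cells, which also overlapped. It was called lower there at log2 -0.45 ± 0.16 (limma, adjusted p = 0.0164), a call lost without T1 replicate 1 or T2 replicate 3 (adjusted p = 0.0754 to 0.0810), and stood at 0.32 after rescaling (adjusted p = 0.0703).

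Procr encodes the endothelial protein C receptor (EPCR, CD201), a surface marker of long-term stem cells, on chr2:155751117-155755471 (plus strand). Its 24-month MPP3 libraries held 15.1, 17.6 and 17.0 TPM in T2 cells, against 1.91, 2.61 and 2.64 TPM in T1 cells. Its 24-month MPP4 libraries held 27.6, 22.0 and 22.4 TPM in T2 cells, against 8.91, 6.77 and 6.09 TPM in T1 cells. The gap was wide in both: log2 2.38 ± 0.16 in MPP3 (limma, adjusted p = 8.01e-07) and 1.61 ± 0.15 in MPP4 (adjusted p = 2.78e-05). Its 3-month WTiMOS MPP3 libraries held 33.2, 29.2 and 34.7 TPM in T2 cells, against 20.3, 13.8 and 12.3 TPM in T1 cells, again apart, at log2 1.05 ± 0.20 (limma, adjusted p = 0.00382). KOiMOS MPP3 turned the other way by a small amount, with 39.7, 43.1 and 40.5 TPM in T2 cells, against 47.6, 48.8 and 47.8 TPM in T1 cells and log2 -0.22 ± 0.058 (limma, adjusted p = 0.00943). In 3-month MPP4 it had 7.66, 7.77 and 5.98 TPM in T2 cells, against 12.4, 13.1 and 13.5 TPM in T1 cells, lower as deposited (log2 -0.79 ± 0.14; limma, adjusted p = 0.000158) and at -0.041 after rescaling (adjusted p = 0.818). The T1 level fell short of 3 TPM only in 24-month MPP3, where all 3 T1 libraries did.

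Esam encodes an adhesion molecule of endothelial and stem cell surfaces, on chr9:37528078-37538319 (plus strand); 3-month MPP3 held much more of it than any other table. In 3-month WTiMOS MPP3 it had 79.2, 92.0 and 72.2 TPM in T2 cells, against 44.1, 28.0 and 31.5 TPM in T1 cells. In KOiMOS MPP3 it had 91.7, 96.0 and 91.8 TPM in T2 cells, against 53.2, 59.8 and 58.1 TPM in T1 cells. No T2 library overlapped a T1 library, and T2 was higher at log2 1.23 ± 0.17 in WTiMOS (limma, adjusted p = 0.000389) and 0.70 ± 0.057 in KOiMOS (adjusted p = 1.46e-06), where it was the largest rise among the 9 genes. In 24-month MPP3 it had 13.4, 16.0 and 16.2 TPM in T2 cells, against 1.70, 2.28 and 2.85 TPM in T1 cells (log2 2.32 ± 0.18; limma, adjusted p = 2.12e-06). In MPP4 the levels were low at both ages. At 24 months it had 3.91, 2.79 and 3.14 TPM in T2 cells, against 1.22, 1.51 and 1.71 TPM in T1 cells, higher at log2 0.78 ± 0.18 (limma, adjusted p = 0.00324) but not past the threshold after rescaling (0.48, adjusted p = 0.0564). At 3 months it had 1.78, 1.51 and 1.19 TPM in T2 cells, against 4.96, 4.59 and 3.14 TPM in T1 cells, lower at log2 -1.06 ± 0.20 (limma, adjusted p = 0.000175) and after rescaling (-0.48, adjusted p = 0.0474), but not past the threshold with GC and length trends removed (-0.47, adjusted p = 0.0525). Mean levels spanned 93.1 TPM (T2 of KOiMOS MPP3) to 1.48 TPM (T1 of 24-month MPP4).

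Emcn encodes endomucin, a sialomucin of endothelium and of stem cells, on chr3:137341067-137432185 (plus strand). It showed the largest rise in T2 cells among the members tested in each of the 4 WTiMOS tables, 3-month MPP4 included. Its 24-month MPP3 libraries held 19.6, 14.2 and 20.6 TPM in T2 cells, against 1.89, 0.897 and 1.34 TPM in T1 cells. The 24-month MPP4 levels were 34.1, 31.4 and 28.8 TPM in T2 cells, against 3.86, 5.32 and 5.25 TPM in T1 cells. T1 libraries were 5.32 TPM or lower in both, and the log2 change was 3.01 ± 0.20 (limma, adjusted p = 8.01e-07) and 2.49 ± 0.14 (adjusted p = 6.40e-07). Its 3-month WTiMOS MPP3 libraries held 28.9, 19.0 and 28.9 TPM in T2 cells, against 5.99, 6.56 and 4.74 TPM in T1 cells. Its 3-month MPP4 libraries held 42.7, 44.5 and 43.2 TPM in T2 cells, against 17.9, 21.1 and 20.5 TPM in T1 cells. Both were apart with T2 higher, at log2 1.96 ± 0.22 (limma, adjusted p = 9.32e-05) and 1.10 ± 0.11 (adjusted p = 5.94e-07), and the MPP4 step was 1.90 after rescaling (adjusted p = 9.39e-08). In KOiMOS MPP3 Emcn had 27.5, 34.0 and 37.7 TPM in T2 cells, against 31.6, 31.9 and 32.8 TPM in T1 cells. The T2 libraries enclosed the T1 libraries, and the log2 change was 0.031 ± 0.097 (limma, adjusted p = 0.823).

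Pdzk1ip1 encodes MAP17, a small membrane protein that binds PDZ domains, on chr4:115088708-115093899 (plus strand). The 24-month MPP3 levels were 61.0, 76.7 and 80.9 TPM in T2 cells, against 25.1, 17.7 and 25.2 TPM in T1 cells. In 24-month MPP4 it had 33.3, 41.1 and 34.6 TPM in T2 cells, against 14.2, 16.0 and 12.7 TPM in T1 cells. T2 stood above T1 in both, at log2 1.65 ± 0.16 (limma, adjusted p = 1.41e-05) and 1.28 ± 0.12 (adjusted p = 3.07e-05). The 3-month WTiMOS MPP3 levels were 46.5, 45.5 and 51.6 TPM in T2 cells, against 37.4, 30.3 and 17.6 TPM in T1 cells, with T1 replicate 3 the lowest library. The log2 change of 0.79 ± 0.22 passed (limma, adjusted p = 0.0322), but not without T1 replicate 2, T1 replicate 3, T2 replicate 2 or T2 replicate 3 (adjusted p = 0.0561 to 0.0959, and log2 0.49 without T1 replicate 3) nor after rescaling (adjusted p = 0.0674), with no filter (adjusted p = 0.134) or without trend and robust moderation (adjusted p = 0.131). KOiMOS MPP3 had 90.0, 83.1 and 86.4 TPM in T2 cells, against 85.3, 86.2 and 87.6 TPM in T1 cells. Those overlapped, with a log2 change of 0.0017 ± 0.05 (limma, adjusted p = 0.982), and both groups there averaged more than any group of the other 4 tables. The 3-month MPP4 levels were 36.8, 29.6 and 31.6 TPM in T2 cells, against 38.6, 39.4 and 31.4 TPM in T1 cells, overlapping as deposited (log2 -0.15 ± 0.12; limma, adjusted p = 0.265) and higher after rescaling (0.65, adjusted p = 0.000414).

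Fgd5 encodes an exchange factor for Cdc42, on chr6:91978878-92076004 (plus strand), and was the faintest of the 9. In KOiMOS MPP3 it had 2.38, 1.85 and 2.74 TPM in T2 cells, against 1.57, 2.13 and 2.09 TPM in T1 cells, which overlapped (log2 0.18 ± 0.15; limma, adjusted p = 0.374). In 3-month WTiMOS MPP3 it had 1.30, 1.39 and 1.34 TPM in T2 cells, against 0.365, 0.103 and 0.0963 TPM in T1 cells. It passed the filter there only through the T2 libraries, and its log2 change of 0.99 ± 0.35 missed the threshold (limma, adjusted p = 0.0795). The same change passed with no filter (adjusted p = 0.0232), with limma without trend and robust moderation (adjusted p = 0.00985) and in a joint limma fit of all 30 libraries (adjusted p = 0.00778), so its call depended on the model. In the other 3 tables it stayed under the filter and was not tested. At 24 months it had 1.59, 0.842 and 0.989 TPM in T2 cells, against 0.117, 0.150 and 0.111 TPM in T1 cells of MPP3, and 0.828, 0.396 and 0.811 TPM in T2 cells, against 0, 0 and 0.0528 TPM in T1 cells of MPP4. T2 libraries lay above T1 libraries in both, and Fgd5 was listed at 0 in 2 of the T1 libraries of MPP4. In 3-month MPP4 it had 0.538, 0.253 and 0.785 TPM in T2 cells, against 0.463, 0.822 and 0.886 TPM in T1 cells, which overlapped.

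**Figure D2:**
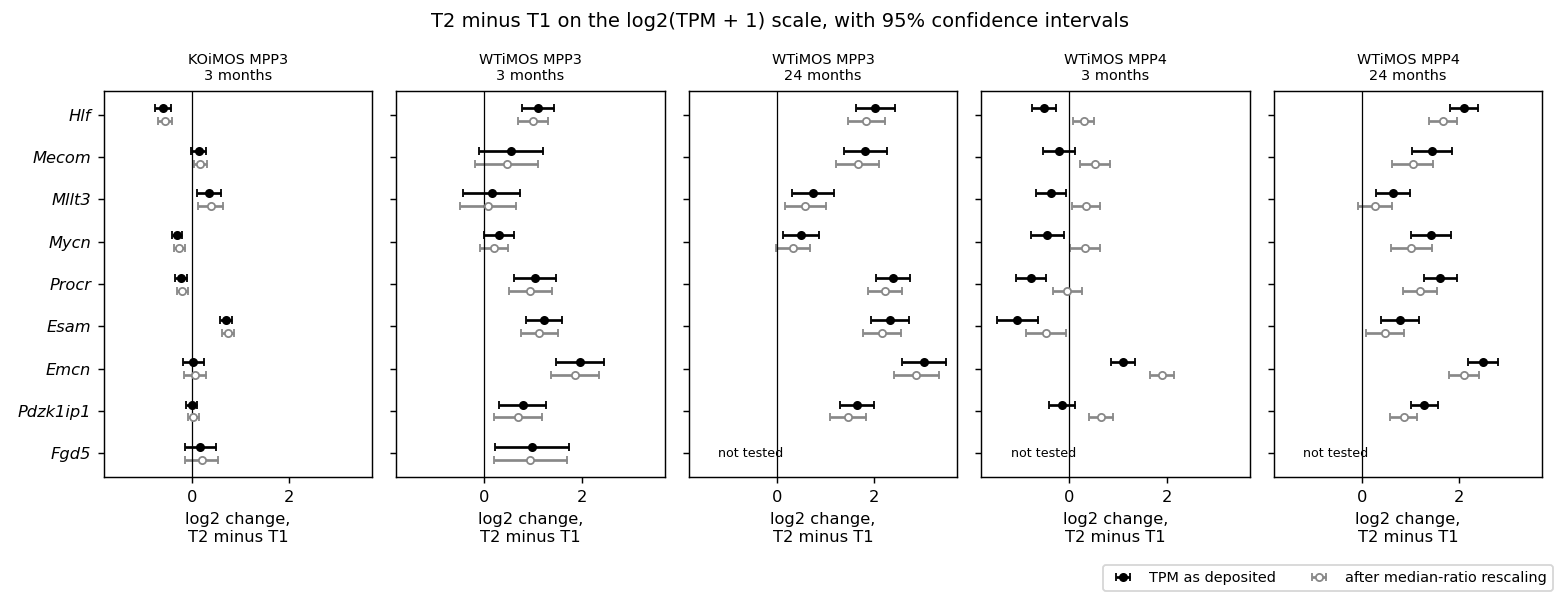
Log2 change of T2 over T1 (horizontal axis) for each gene (vertical axis) in the 5 tables, with 95% confidence intervals, as deposited (filled) and after median-ratio rescaling (open). Filled and open points lie close together in the MPP3 tables and part in 3-month MPP4, where Hlf lies at -0.51 filled and 0.29 open.

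The study's design sets KOiMOS against WTiMOS, 24 against 3 months and MPP4 against MPP3, and the T2 minus T1 step was compared between tables for each. The tables enter several of these comparisons, so they are not independent. Each sets whole tables against each other, so table and condition cannot be told apart in the differences of steps. The Y-linked contrast of T2 and T1 libraries given above also changed between the tables of some comparisons. These were 24 against 3 months in MPP3 and MPP4 against MPP3 at 3 months. In 3-month MPP3 the step was smaller or turned in KOiMOS relative to WTiMOS for 6 of 9 genes and larger for 0, against 22.2% of all genes called and 14.6% below. Emcn stood at a log2 step of 0.031 ± 0.097 in KOiMOS and 1.96 ± 0.22 in WTiMOS, a difference of -1.93 ± 0.24 (limma steps, adjusted p = 1.98e-05). Hlf differed by -1.69 ± 0.17 (adjusted p = 5.67e-07) and Procr by -1.27 ± 0.21 (adjusted p = 0.000458). For these a gene higher in T2 cells of WTiMOS was lower, or within the spread, in T2 cells of KOiMOS. Mycn differed by -0.60 ± 0.15 (adjusted p = 0.00980), Pdzk1ip1 by -0.79 ± 0.23 (adjusted p = 0.0236) and Esam by -0.53 ± 0.18 (adjusted p = 0.0452).

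The Esam difference was lost in 8 of the 12 fits that left out 1 library (KOiMOS T1 replicates 2 and 3 and T2 replicates 1 and 3, WTiMOS T1 replicates 2 and 3 and T2 replicates 1 and 2; adjusted p = 0.0531 to 0.173) and after rescaling (adjusted p = 0.151). That of Pdzk1ip1 was lost without WTiMOS T1 replicate 3, T2 replicate 2 or T2 replicate 3 (adjusted p = 0.0585 to 0.0719, and -0.49 without T1 replicate 3) and after rescaling (adjusted p = 0.0655), where 18.9% of all genes were called. With no filter and with limma without trend and robust moderation, Esam (adjusted p = 0.111 and 0.119) and Pdzk1ip1 (adjusted p = 0.0922 and 0.0924) were not called either. In the joint limma fit Mycn (adjusted p = 0.0800) and Esam (adjusted p = 0.107) lost their call. Mecom, Mllt3 and Fgd5 were not called, with 95% intervals of -1.07 to 0.26, -0.41 to 0.82 and -1.61 to -0.011; Fgd5 passed with no filter (limma, adjusted p = 0.0282), without trend and robust moderation (0.00837) and in the joint fit (0.0388). The intervals of Mecom and Fgd5 take in the differences called for Mycn, Pdzk1ip1 and Esam. That of Mllt3 lies above all the differences called.

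In MPP3 the step was larger at 24 than at 3 months for 6 of 8 genes and smaller for 0, against 18.2% of all genes called and 11.8% above. Procr had steps of 2.38 ± 0.16 at 24 and 1.05 ± 0.20 at 3 months, a difference of 1.33 ± 0.26 (limma steps, adjusted p = 0.000779). Esam differed by 1.09 ± 0.24 (adjusted p = 0.00299) and Hlf by 0.91 ± 0.23 (adjusted p = 0.00869). Levels of both genes were lower at 24 months in both cell groups. Procr averaged 16.5 TPM at 24 and 32.3 TPM at 3 months in T2 cells, and 2.39 TPM at 24 and 15.4 TPM at 3 months in T1 cells. Esam averaged 15.2 TPM at 24 and 81.1 TPM at 3 months in T2 cells, and 2.28 TPM at 24 and 34.6 TPM at 3 months in T1 cells. Table and age cannot be told apart in these levels or in the steps. T1 libraries held 0 TPM of Y-linked RNA at 24 months and 64.2 to 78.9 TPM at 3 months. The sex of the source animals and age thus cannot be told apart in the differences of steps either. Mecom differed by 1.27 ± 0.36 (adjusted p = 0.0187), lost without 3-month T1 replicate 2, T2 replicate 1 or T2 replicate 3 (adjusted p = 0.0530 to 0.0697) and with no filter (adjusted p = 0.0577). Emcn differed by 1.05 ± 0.30 (adjusted p = 0.0168), lost without 3-month T1 replicate 2 or T2 replicate 2 (adjusted p = 0.0525 to 0.0554). Pdzk1ip1 differed by 0.86 ± 0.27 (adjusted p = 0.0319), a call lost in 7 of 12 fits without 1 library (24-month T1 replicate 2 and T2 replicates 2 and 3, 3-month T1 replicates 1 and 2 and T2 replicates 1 and 2; adjusted p = 0.0584 to 0.122) and after rescaling (adjusted p = 0.0643, with 17.5% of all genes called). Mllt3 and Mycn were not called, with 95% intervals of -0.10 to 1.28 and -0.25 to 0.66.

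In MPP4 the T2 minus T1 step, read with its sign, lay higher at 24 than at 3 months for 8 of 8 genes as deposited. However, 87% of all genes were called there and 79.2% in that direction, a share close to that of the members. After rescaling, 52.8% of all genes were called and 4 of the 8 members: Hlf at 1.37 (adjusted p = 4.84e-07), Procr at 1.23 (adjusted p = 2.80e-05), Esam at 0.95 (adjusted p = 0.00311) and Mycn at 0.69 (adjusted p = 0.0163). With GC and length trends removed, the Mycn difference was 0.40 and no longer called (limma steps, adjusted p = 0.161). The signed step of Hlf, Procr and Esam was thus higher at 24 months in both progenitor types, as deposited and after rescaling. As deposited, their differences in MPP4 were 2.60 ± 0.18, 2.40 ± 0.21 and 1.84 ± 0.26. The Esam step in MPP4 changed sign rather than grew. It was 0.78 at 24 and -1.06 at 3 months as deposited. Rescaled, it was 0.48 at 24 months, not called (limma, adjusted p = 0.0564), and -0.48 at 3 months. Emcn, higher in T2 cells at both ages, differed by 1.39 ± 0.18 as deposited (limma steps, adjusted p = 2.55e-07) and by 0.19 after rescaling (adjusted p = 0.385).

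Between progenitor types at 3 months, the step was smaller or turned in MPP4 relative to MPP3 for 7 of 8 genes as deposited, against 71.7% of all genes called and 64.2% below. Of these 7, Emcn alone had a positive step in both, at 1.10 in MPP4 and 1.96 in MPP3. After rescaling 41.3% of all genes were called and 3 members: Esam at -1.60 (adjusted p = 1.51e-05), Procr at -0.99 (adjusted p = 0.00213) and Hlf at -0.71 (adjusted p = 0.00174). Their differences as deposited were -2.29 ± 0.26, -1.84 ± 0.25 and -1.61 ± 0.19. The deposited call of Mecom (-0.76 ± 0.34; limma steps, adjusted p = 0.04997) was lost in 7 of 12 fits without 1 library (MPP4 T1 replicates 1 and 2 and T2 replicates 1 and 2, MPP3 T1 replicates 1 and 3 and T2 replicate 2; adjusted p = 0.0583 to 0.234, and -0.41 without MPP3 T2 replicate 2). At 24 months 3 of 8 genes differed, against 22.6% of all genes called, 18% above and 4.59% below. The step of Esam was smaller in MPP4, a difference of -1.53 ± 0.25 (limma steps, adjusted p = 0.000181), as was that of Procr at -0.77 ± 0.22 (adjusted p = 0.0157), and both passed on either scale. Mycn had the larger step in MPP4 by 0.91 ± 0.25 (adjusted p = 0.0126), and by 0.69 after rescaling (adjusted p = 0.0524), where 18.5% of all genes were called and Emcn joined at -0.77 (adjusted p = 0.0354). Hlf, with a difference of 0.073 ± 0.22, had a 95% interval of -0.39 to 0.54.

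**Figure D3:**
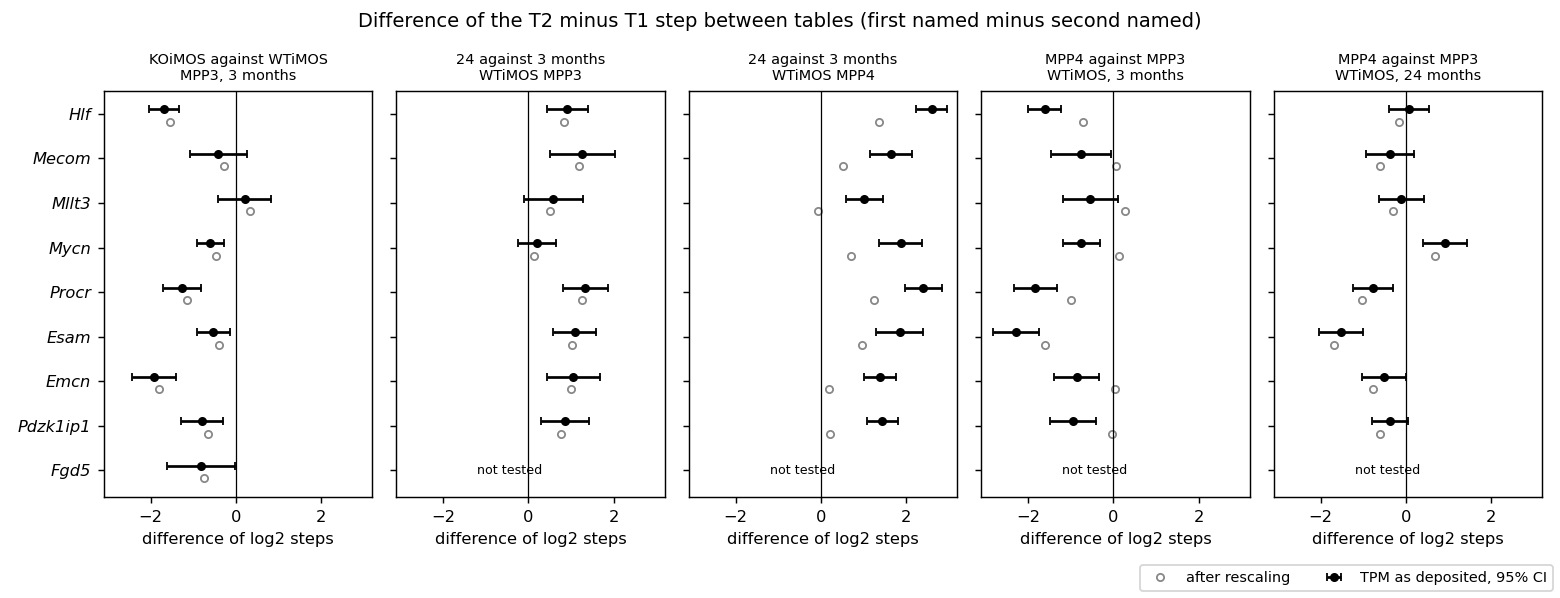
Difference of the T2 minus T1 log2 step between tables, first named minus second named (horizontal axis), for each gene (vertical axis), with 95% confidence intervals as deposited (filled) and the value after rescaling (open). In the KOiMOS panel Hlf, Procr and Emcn lie below 0 on both scales, and in the panel of 24 against 3 months in MPP4 the open points sit closer to 0 than the filled ones.

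Of 49 other genes known from stem cells, 44 were tested in 24-month MPP3: 34 were higher in T2 cells, 7 lower and 3 not called, with a median log2 change of 0.95, where 30% of all genes were higher and 12% lower. In 24-month MPP4 28 of 40 were higher, 4 lower and 8 not called (median 0.78), against 58.2% of all genes higher and 7% lower, and after rescaling 17 of 38 were higher, against 14.7% of all genes, and 6 lower. In 3-month WTiMOS MPP3 16 of 42 were higher, 4 lower and 22 not called (median 0.47, where the median of all genes was 0.10), against 8.39% of all genes higher and 5.96% lower. KOiMOS MPP3 had 13 of 43 higher and 21 lower (median -0.23, against -0.042 for all genes), where 15.9% of all genes were higher and 20.4% lower. In 3-month MPP4 3 of 39 were higher and 28 lower as deposited, shares near those of all genes (8.71% higher and 72.6% lower), and 11 were higher and 13 lower after rescaling (25.8% and 26.7% of all genes). The summed TPM of the 49 ran against the deposited counts at 24 months and in 3-month MPP4. It was 6212 to 6566 TPM in T2 and 7161 to 7427 TPM in T1 libraries of 24-month MPP3. In 24-month MPP4 it was 7402 to 7613 TPM in T2 and 7811 to 8088 TPM in T1 libraries. In 3-month MPP4 it was 9551 to 9672 TPM in T2 and 6939 to 7063 TPM in T1 libraries. The sum ran with the counts in both 3-month MPP3 tables. The genes that changed most differed by table. In 24-month MPP3, Cd34, a sialomucin of progenitors, averaged 384 ± 21.8 TPM in T2 cells against 99.2 ± 6.68 TPM in T1 cells (SD, n = 3 each; log2 1.94). Itga2b, the integrin CD41, averaged 14.1 ± 3.26 TPM in T2 cells against 3.01 ± 0.137 TPM in T1 cells (log2 1.89) there and 75.1 ± 3.61 TPM in T2 cells against 22.3 ± 1.41 TPM in T1 cells (log2 1.71) in 3-month WTiMOS MPP3. Gata2, a zinc-finger factor of stem cells, averaged 39.8 ± 3.28 TPM in T2 cells against 12.04 ± 2.46 TPM in T1 cells (log2 1.66) in 24-month MPP3. In each case every T2 library lay above every T1 library, and all were called (limma, adjusted p = 1.47e-05 at most).

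Mn1, a transcriptional coregulator, averaged 7.52 ± 0.830 TPM in T2 cells against 1.18 ± 0.326 TPM in T1 cells (log2 1.97) in 24-month MPP4. Hoxa9, a homeobox factor, averaged 69.6 ± 4.83 TPM in T2 cells against 33.2 ± 1.16 TPM in T1 cells (log2 1.05) in 3-month WTiMOS MPP3. Both were called higher (limma, adjusted p = 0.000134 at most). In KOiMOS MPP3 the largest changes ran both ways: the channel gene Trpc6 averaged 19.9 ± 0.654 TPM in T2 cells against 5.25 ± 0.540 TPM in T1 cells (log2 1.74), while the surface antigen Ly6a (Sca-1) averaged 64.7 ± 4.34 TPM in T2 cells against 137 ± 3.75 TPM in T1 cells (log2 -1.08). In 3-month MPP4 Gfi1b, a zinc-finger repressor, averaged 2.24 ± 0.327 TPM in T2 cells against 9.25 ± 2.63 TPM in T1 cells (log2 -1.63), and the interferon-induced Ifitm1 3845 ± 100 TPM in T2 cells against 1366 ± 32.5 TPM in T1 cells (log2 1.49). These last 4 passed as well (limma, adjusted p = 3.87e-06 at most). Other genes the naming rule took were Pbx3 (24-month MPP3), Tgm2 and Tie1 (3-month WTiMOS MPP3), Txnip and Ndn (24-month MPP4), all higher, and Thy1 and Robo4 (KOiMOS MPP3) and Ndn and Socs2 (3-month MPP4), all lower.

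**Figure D4:**
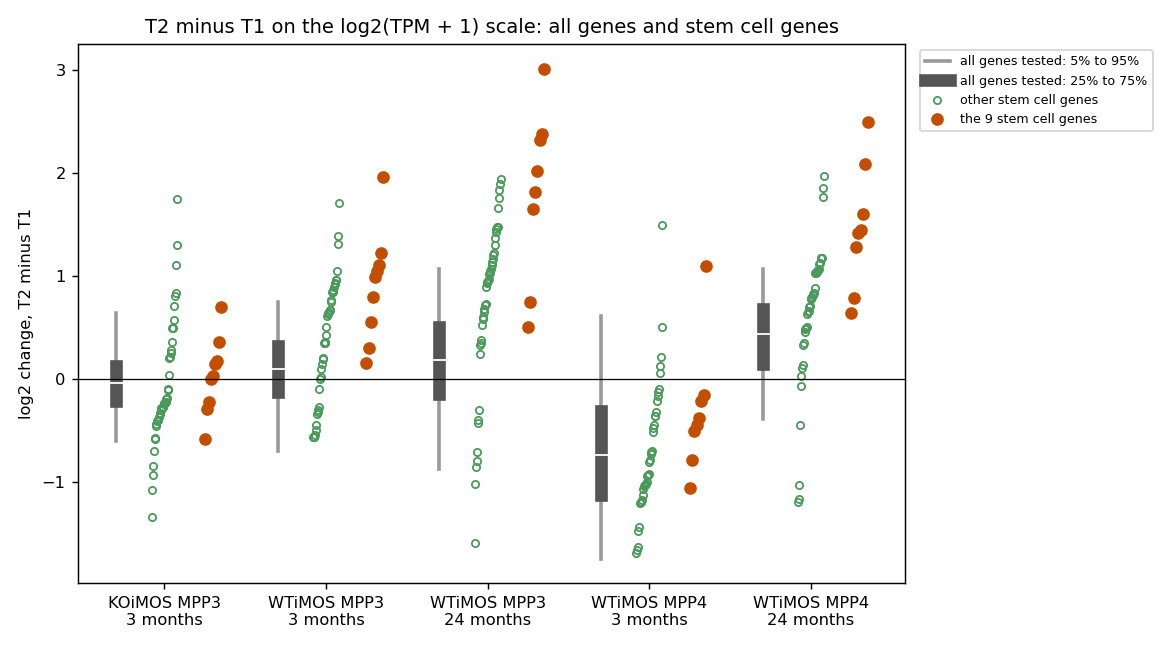
Log2 change of T2 over T1 (vertical axis) in the 5 tables (horizontal axis) for the 9 genes (orange; 8 where Fgd5 was not tested), the other stem cell genes tested (open green) and all genes tested (grey bars: 5% to 95% thin, 25% to 75% thick, white mark the median). In 24-month MPP3 the orange points lie between 0.50 and 3.01 and the median of all genes at 0.18.

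Over all 30 libraries, with each table centred on its mean, the 36 pairs of the 9 genes had a Pearson r of 0.57 to 0.94, with a median of 0.80; Hlf and Procr were the closest pair. These points share tables, T2 and T1 labels and the TPM scale, so r is a description. Among 10145 genes outside the members, those most like Hlf were Meis1 (r = 0.973), Thsd1 and Vldlr (0.95 or above). The closest to Procr were Eci1 (0.965), Egfl7 (0.963) and Trf (0.954), and to Esam Gusb (0.956), Cd34 and Gata2. The genes closest to Emcn were Otos (0.968), Bcl11a itself (0.945) and Padi4 (0.934). Mecom was nearest to Vcam1 (0.915), Ccdc112 and Adgrl4, and Pdzk1ip1 to Eci1 (0.928), C1qc and C1qb. Mycn was nearest to Ddx17 (0.940), Dennd1b and Trim30d, Fgd5 to Gatm (0.918), Emid1 and Cd72, and Mllt3 to Mboat7 (0.834), Ubxn2a and Sdc1.

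Because Procr, Esam, Emcn and Mecom are also known from endothelial cells, 14 endothelial markers were read beside them. Of these, 11 stayed below 1 TPM in all 6 libraries of KOiMOS MPP3, of 24-month MPP3 and of 3-month MPP4, 10 in 24-month MPP4 and 9 in 3-month WTiMOS MPP3. Across all 30 libraries Cdh5 (VE-cadherin) reached at most 0.315 TPM, Lyve1 0.183, Ptprb 0.0388, Kdr 0.712, Stab2 0.549, Flt4 0.559, Cldn5 1.12 and Plvap 7.37, and Lyve1 was listed at 0 in all 6 libraries of 4 tables. The markers that passed the filter were Egfl7, Pecam1, Tie1 and, in 3-month WTiMOS MPP3, Plvap, and those called were higher in T2 cells of 4 tables and lower in 3-month MPP4. The summed level of the 14 was 115 to 137 TPM in T2 libraries and 35.8 to 43.1 TPM in T1 libraries of 24-month MPP3. There 3 were tested and 2 called higher, against 30% of all genes. The sum was 261 to 327 TPM in T2 libraries and 108 to 157 TPM in T1 libraries of 24-month MPP4 (3 tested, 3 higher, against 58.2% of all genes). In 3-month WTiMOS MPP3 it was 404 to 469 TPM in T2 libraries and 274 to 285 TPM in T1 libraries (4 tested, 2 higher, against 8.39%). KOiMOS MPP3 held 470 to 494 TPM in T2 libraries and 388 to 414 TPM in T1 libraries (3 tested, 2 higher, against 15.9%). In 3-month MPP4 it was 128 to 143 TPM in T2 libraries and 248 to 290 TPM in T1 libraries (2 tested, 2 lower, against 72.6%). Most of each sum was Egfl7, with Pecam1 and, in 3-month MPP3, Tie1. The sum was thus higher in T2 libraries in the 4 tables other than 3-month MPP4 and lower there, and the part of endothelial cells in the steps of the 9 genes was not tested.

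A list of 13 macrophage markers, added after C1qb, C1qc and Vcam1 appeared among the genes most like the members, was read beside them as well. The list was thus prompted by likeness in these same libraries, and its counts are a description, not a separate result. Its sum was 68.2 to 85.3 TPM in T2 libraries and 9.32 to 11.1 TPM in T1 libraries of 24-month MPP3 (8 of 9 tested genes higher, against 30% of all genes, and 1 lower), and 31.5 to 38.6 TPM in T2 libraries and 10.2 to 12.1 TPM in T1 libraries of 24-month MPP4 (7 of 8 higher, against 58.2%). It was 135 to 169 TPM in T2 libraries and 42.3 to 61.9 TPM in T1 libraries of 3-month WTiMOS MPP3 (7 of 9 higher, against 8.39%), 183 to 207 TPM in T2 libraries and 135 to 144 TPM in T1 libraries of KOiMOS MPP3 (8 of 11 higher, against 15.9%, and 1 lower) and 17.1 to 21.5 TPM in T2 libraries and 29.7 to 35.1 TPM in T1 libraries of 3-month MPP4 (4 of 8 lower, against 72.6%). C1qb averaged 24.2 TPM in T2 and 1.80 TPM in T1 cells of 24-month MPP3, while Siglec1 and Mertk stayed below 1 TPM on average in every group, Siglec1 at 0 in all 6 libraries of 3-month MPP4 and Mertk at 0 in all 6 of 24-month MPP4. The part of such cells in the steps of the 9 genes was not tested, and neither was that of the Y-linked difference given above.

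The sorted types were read beside 9 genes of the progenitor gates. Levels are given for Fcgr3 at 24 months, Flt3 and Kit alone. Those of Fcgr3 at 3 months and of Cd48, the other gene chosen to mark MPP3, are not shown. This is not a full check of the sort and says nothing of the genes left out. Fcgr3, an Fc receptor of myeloid progenitors, averaged 5.90 TPM in T2 and 1.34 TPM in T1 cells of 24-month MPP4 and 19.2 TPM in T2 and 16.8 TPM in T1 cells of 24-month MPP3. Flt3, the receptor that marks MPP4, averaged 196 TPM in T2 and 113 TPM in T1 cells of 24-month MPP4 and 28.0 TPM in T2 and 19.9 TPM in T1 cells of 24-month MPP3. At 3 months Flt3 did not set the types apart, at 116 TPM in T2 and 180 TPM in T1 cells of MPP4 and 146 TPM in T2 and 87.6 TPM in T1 cells of WTiMOS MPP3. Kit, the stem cell factor receptor, averaged above 40 TPM in all 10 groups. Of the gate genes tested, 3 of 8 were higher and 3 lower in 24-month MPP3 (30% and 12% of all genes). In 24-month MPP4 5 of 8 were higher and 2 lower (58.2% and 7% of all genes), and in 3-month WTiMOS MPP3 3 of 9 and 2 (8.39% and 5.96%). The count was 2 of 8 higher and 4 lower in KOiMOS MPP3 (15.9% and 20.4%). It was 2 of 8 higher and 4 lower in 3-month MPP4 as well (8.71% and 72.6%).

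Of 16 immediate early genes, which respond to handling, 10 of 13 tested were lower and 1 higher in T2 cells of KOiMOS MPP3, where 20.4% of all genes were lower. The count in 3-month WTiMOS MPP3 was 10 of 15 lower and 0 higher, where 5.96% of all genes were lower. For 3-month MPP4 it was 13 of 14 lower and 0 higher, where 72.6% of all genes were lower as deposited. At 24 months 6 of 14 were lower and 4 higher in MPP3 (12% and 30% of all genes), and 4 lower and 4 higher in MPP4 (7% and 58.2%); their part in the members' steps was not tested. Of 9 stromal markers at most 2 were tested in a table and 0 were higher in any. Lower were 2 in 24-month MPP3 (12% of all genes were), 1 in KOiMOS MPP3 (20.4%) and 1 in 3-month MPP4 (72.6%). Of 9 mature lineage markers, 2 of 7 tested were higher and 2 lower in 24-month MPP3 (30% and 12% of all genes). In 24-month MPP4 2 of 4 were higher (58.2%), and in 3-month WTiMOS MPP3 1 of 6 was higher and 2 lower (8.39% and 5.96%). KOiMOS MPP3 had 2 of 6 higher and 3 lower (15.9% and 20.4%), and 3-month MPP4 2 of 4 higher and 1 lower (8.71% and 72.6%).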

How the data were processed

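RNA of bone marrow progenitors was amplified to cDNA with a single-cell or low-input kit, per the labels' protocols, and 30 libraries were deposited as 5 tables of TPM. The submitters' processing notes name HISAT2, StringTie, featureCounts, DESeq2 and the build mm10; which version of each, and for which step, is not given in the sources used. TPM values as deposited by the authors have the same sum in every library, so depth is unknown and only the spread between libraries gives the precision; 0 columns were left unmapped.

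T2 was compared with T1 within each table on log2(TPM + 1) with limma 3.58.1 (trend and robust moderation) in R 4.3.3, over genes that reached 1 TPM in 3 or more of the 6 libraries, and p-values were Benjamini-Hochberg adjusted over all genes tested and called at 0.05. Steps of different tables were compared by their difference, with the moderated variances summed and Satterthwaite degrees of freedom. Every fold change is on this log2(TPM + 1) scale, and those of faint genes such as Fgd5 are understated by it. Levels across tables got no test. For a gene alone, the smallest p of an exact permutation test of 3 against 3 libraries is 0.1. The fits were checked on simulated data. The members and gene lists were chosen with earlier results of these data known. Named besides the members were, for each member, the 3 genes most like it and, in each table, up to 4 called genes of the stem cell list with the largest change, at least 5 TPM in the higher group and no overlap of libraries; a gene that the rule took is not reported here. Lists of endothelial, stromal, gate, mature lineage, immediate early, Y-linked and macrophage genes were counted, the last added after seeing the data. Alternatives were a pseudocount of 0.1 TPM, no filter, median-ratio rescaling, limma without trend and robust moderation, a replicate block, a joint fit, leaving out each library and, chosen after seeing the data, removal of trends with GC content and transcript length. Gene positions came from GENCODE vM21 and promoters from RefSeq.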

Additional observations from a re-analysis of the deposited data

Results flagged for a closer look

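The results below are differences of the T2 minus T1 log2 step between tables that passed the test of the difference itself (limma steps, Benjamini-Hochberg adjusted; values and errors stand in the report). Several share a table, so they are not independent, and table and condition cannot be told apart in them. Not all held after median-ratio rescaling or with 1 library left out, as given in the report. In KOiMOS against WTiMOS MPP3 at 3 months the step differed by -1.93 for Emcn, -1.69 for Hlf, -1.27 for Procr, -0.79 for Pdzk1ip1, -0.60 for Mycn and -0.53 for Esam. In 24 against 3 months of WTiMOS MPP3 it differed by 1.33 for Procr, 1.27 for Mecom, 1.09 for Esam, 1.05 for Emcn, 0.91 for Hlf and 0.86 for Pdzk1ip1.

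In 24 against 3 months of WTiMOS MPP4 the step differed by 2.60 for Hlf, 2.40 for Procr, 1.87 for Mycn, 1.84 for Esam, 1.65 for Mecom, 1.44 for Pdzk1ip1, 1.39 for Emcn and 1.02 for Mllt3, where the median of all genes was 1.20. After rescaling Mecom (0.52), Pdzk1ip1 (0.21), Emcn (0.19) and Mllt3 (-0.071) were not called there. In MPP4 against MPP3 at 3 months the step differed by -2.29 for Esam, -1.84 for Procr, -1.61 for Hlf, -0.95 for Pdzk1ip1, -0.86 for Emcn, -0.76 for Mecom and -0.76 for Mycn, where the median of all genes was -0.88. Rescaled, Pdzk1ip1 (-0.043), Emcn (0.029), Mecom (0.066) and Mycn (0.12) were not called. In MPP4 against MPP3 at 24 months the step differed by -1.53 for Esam, -0.77 for Procr and 0.91 for Mycn, the last not called after rescaling (0.69).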

How the results depend on the processing

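Of the members' 42 steps, the direction and side of the threshold held for 42 with a pseudocount of 0.1 TPM, 41 with a joint fit, 40 with limma without trend and robust moderation, 38 with no filter and 31 each with median-ratio rescaling and with GC and length trends removed; of the 41 differences they held for 39, 38, 36, 35, 26 and 25. With no filter, 1 member was called higher in KOiMOS MPP3 and 552 genes were called higher in 3-month WTiMOS MPP3, and without trend and robust moderation 409 were higher and 398 lower there. Rescaling gave 551 genes higher in 3-month WTiMOS MPP3, 2113 higher and 2137 lower in 24-month MPP3, 2891 higher and 2994 lower in 3-month MPP4 (members 5 and 1), and 1667 higher and 2185 lower in 24-month MPP4. In 3-month MPP4 it reversed Hlf (0.29), Mecom (0.53), Mllt3 (0.34), Mycn (0.32) and Pdzk1ip1 (0.65). Among the differences, rescaling gave 937 genes below 0 for KOiMOS against WTiMOS. For 24 against 3 months in MPP4 it gave 3142 above and 2669 below, 4 members above and Mllt3 at -0.071. For MPP4 against MPP3 it gave 2092 above, 2333 below and 3 members below at 3 months, with Mecom 0.066, Mllt3 0.27, Mycn 0.12 and Emcn 0.029, and 817 above, 1208 below and 0 members above at 24 months, with Hlf -0.17. Removing GC and length trends gave 2122 genes lower in 24-month MPP3, 2679 higher and 3063 lower in 3-month MPP4 (members 6 and 0; Hlf 0.34, Mecom 0.51, Mllt3 0.34, Mycn 0.47, Procr 0.13, Pdzk1ip1 0.62), and 1730 higher and 1925 lower in 24-month MPP4. Of the differences it gave Mycn -0.022 for age in MPP3, 3147 above, 2497 below, 3 members above and Mllt3 -0.072 for age in MPP4, 1854 above, 2540 below, 3 members below, Mecom 0.042, Mllt3 0.28 and Mycn 0.25 for MPP4 against MPP3 at 3 months, and 890 above, 1305 below, 0 members above and Hlf -0.20 at 24 months. The cause was not tested.

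Leaving out 1 library gave 512 to 1368 genes higher and 421 to 829 lower in 3-month WTiMOS MPP3 (fewest without T1 replicate 1), 824 to 1556 lower in 24-month MPP3 (fewest without T1 replicate 3), 1 to 2 members higher in KOiMOS MPP3 and 3 to 5 lower in 3-month MPP4. Steps near 0 changed sign: Emcn -0.066 to 0.15 and Pdzk1ip1 -0.027 to 0.030 in KOiMOS MPP3, and Mllt3 -0.084 to 0.32 in 3-month WTiMOS MPP3. Among differences it gave 1043 to 1935 genes below for KOiMOS against WTiMOS (fewest without WTiMOS T1 replicate 1). For age in MPP3 it gave 836 to 1471 above and 427 to 835 below (fewest without 24-month T1 replicate 3), and 3 to 6 members above (fewest without 3-month T1 replicate 2). For MPP4 against MPP3 at 24 months it gave 1220 to 2269 above and 285 to 640 below (fewest without MPP3 T1 replicate 3), Hlf -0.11 to 0.20 and Mllt3 -0.26 to 0.093.

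The labels number replicates 1 to 3 in T2 and T1 cells, but same-numbered libraries deviated together at r = -0.197 to 0.127 and not above 0.1 for every pair in any table, so the numbers were not taken as a pairing. With the replicate block, 3145 genes were called higher and 1287 lower in 24-month MPP3, where Mycn was lost (adjusted p = 0.0545, limma); the other 41 steps and all 41 differences kept their call.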
